A study of Mus musculus with 11 samples.

Results

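The Stat5 pathway genes with their Socs and Pim feedback were read in hematopoietic stem cells (HSC). They were the 10 genes Jak2, Stat5a, Stat5b, Cish, Socs1, Socs2, Socs3, Pim1, Pim2 and Osm, taken by mouse symbol from the 37991 gene IDs of the count table, and all 10 were found. RNA-Seq was done on aliquots of 1000 HSC, sorted from bone marrow of C57BL/6 mice at 8 weeks of age as lineage-negative, CD48-, c-Kit+, Sca1+, CD135- and CD150+ cells. There were 4 libraries from control mice (labelled as wild type), 4 from NA10hd mice and 3 from NV mice. NA10hd mice carried the NUP98-HOXA10HD fusion at the ROSA26 locus behind a stop cassette flanked by loxP sites. NV mice carried the oncogenic NrasG12D allele behind a cassette of the same kind. In both, Vav-Cre, which acts throughout blood cells, removed the cassette, so HSC were not the only cells that expressed the allele. The controls were littermates. Whether they carried a cassette allele without Cre is not given for these libraries. The study calls the libraries of a genotype biological replicates, and neither the number of mice behind each library nor whether any was pooled is given in the sources used here, so the p-values measure the spread between libraries.

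Many cytokine receptors, such as Epor and Ghr, hold the kinase Jak2, which phosphorylates Stat5a and Stat5b once a ligand binds. The 2 Stat5 proteins then switch on genes that carry the Stat5 sequence motif. Cish, Socs1, Socs2 and Socs3 are among these genes, and their proteins dampen the receptors and kinases that raised them, so that their transcripts are commonly read as a mark of recent cytokine signalling. Pim1 and Pim2 are serine/threonine kinases that favour survival and growth, and Osm is a ligand of the interleukin 6 family whose gene is a Stat5 target. In HSC, Jak2 and Stat5 are known for their role in stem cell maintenance.

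Control libraries held 5464815 to 12610189 counts, those of NA10hd 7624638 to 12180230 and those of NV 9981499 to 14283008. The libraries differed in their content of Xist, the RNA of the inactive X, and of Y-linked transcripts. Y-linked counts without Xist were found in control replicates 1 and 4 and in NA10hd replicates 1 to 3, control replicates 2 and 3 and all 3 NV libraries had both, and NA10hd replicate 4 had 216 Xist counts and no Y-linked counts. Levels are given as CPM, counts scaled to a fixed library size. Among libraries that held both, the amounts still differed: Xist was at 13.4 and 3.59 CPM in control replicates 2 and 3 and at 9.71 to 18.8 CPM in NV libraries, and the Y-linked gene Ddx3y was at 60.2 and 61.4 CPM and at 29.1 to 42.1 CPM. Ddx3y was lower in NV than in all control HSC (log2 fold change -1.05, edgeR adjusted p = 0.00998). The 7 HSC marker genes read here were all detected and summed to 1386 to 1800 CPM in control HSC, to 1415 to 2066 CPM with NA10hd and to 1310 to 1651 CPM in NV HSC. Among markers of other cells, Cd3e, Cd3g and Rag1 of lymphoid cells and Mcpt8 and Prss34 of basophils and mast cells had 0 counts in all libraries. The myeloid list summed to 372 to 554 CPM, most of it Lyz2. Over all libraries the lymphoid list reached at most 104 CPM and the list of mast cells and basophils, most of it Gata2, 648 CPM.

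The Stat5 motif, TTCNNNGAA, was searched in RefSeq promoter windows (GRCm38.p6) that ran from 250 bases before to 50 bases after a gene's start. It reads the same on both strands. The table held 11 windows for 8 members, without Socs2 and Osm. Of all 32851 windows, 8.3% held the motif at least once and 0.457% held it 2 or more times. Cish had 2 matches, which began at bases 1 and 12 counted from the start site. Socs3 had 1 match, 154 bases before the start. The windows of Socs1, Pim1, Pim2, Stat5a, Stat5b and Jak2 did not hold these letters. The stretches are shown for Cish, the member with the most matches and one of those with lower transcripts in NV HSC, and for Socs3, the only other member with a match, with capitals at the matches. Cish is at chr9:107296409-107296678 on the plus strand and Socs3 at chr11:117969367-117969616 on the minus strand of GRCm38.p6.
Cish: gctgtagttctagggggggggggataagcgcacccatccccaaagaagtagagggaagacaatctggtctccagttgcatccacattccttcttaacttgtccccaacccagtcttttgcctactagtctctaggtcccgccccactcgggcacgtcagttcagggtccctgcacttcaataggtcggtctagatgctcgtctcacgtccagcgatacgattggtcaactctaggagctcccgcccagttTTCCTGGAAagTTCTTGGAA
Socs3: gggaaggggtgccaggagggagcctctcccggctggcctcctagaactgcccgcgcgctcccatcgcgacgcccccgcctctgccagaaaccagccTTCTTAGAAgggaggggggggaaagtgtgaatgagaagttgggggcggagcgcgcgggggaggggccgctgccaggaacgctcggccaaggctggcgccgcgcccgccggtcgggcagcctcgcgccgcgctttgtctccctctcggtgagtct

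The question of each comparison was how the transcriptome of HSC with one allele differed from control HSC, and how the 2 mutant HSC differed from each other. Genes were called differentially expressed (DEG) at a fold change above 1.5 and a p, adjusted by Benjamini-Hochberg in edgeR's quasi-likelihood test, under 0.05. In NV HSC, 3 of the 10 members were DEGs, all lower than in control: Cish, Socs2 and Pim1. Of all 13462 genes tested in this comparison, 4.76% were DEGs. The median log2 fold change of the 10 members was -0.71, with 4 higher and 6 lower, while that of all tested genes was -0.01. In bulk samples, fewer cells that express a gene and less of its RNA per cell cannot be told apart. In NA10hd HSC, 0 of the 10 members were DEGs, where 0.00766% of 13060 genes were. None of the 10 had an unadjusted p under 0.05 there, where 11.9% of all tested genes did. DESeq2 and limma-voom also called 0 members, and called 1.26% and 0.0153% of all genes. Their median was -0.02, with 5 higher and 5 lower, beside 0.02 for all tested genes. Compared directly, 2 members were DEGs, Socs2 and Pim1, both higher in NA10hd than in NV HSC, where 5.09% of 13461 genes were DEGs. The members' median in that comparison was 0.54, and that of all tested genes was 0.01. The 3 comparisons share libraries and are not independent of each other.

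**Figure D1:**
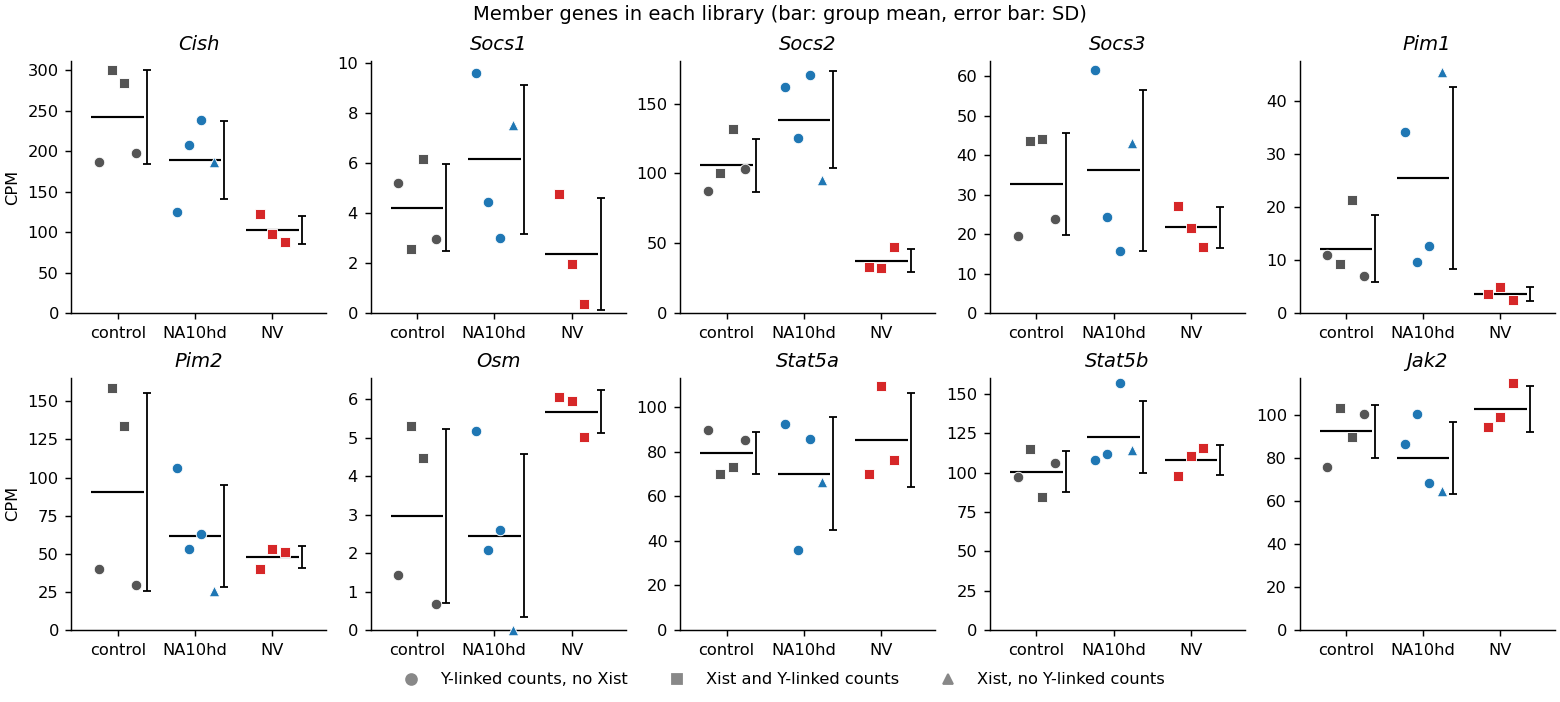
Each panel plots the CPM of 1 member gene in the 4 control, 4 NA10hd and 3 NV libraries, with the group mean as a bar and the SD as an error bar; the shape of a point marks the library's Xist and Y-linked counts. The NV libraries sit below all other libraries for Cish, Socs2 and Pim1, and the share of all genes so placed was not computed. The control libraries of different shape do not overlap for Cish, Socs3, Pim2, Osm and Stat5a, where 42.3% of all genes did not.

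Cish (ENSMUSG00000032578, chromosome 9, 107198357 to 107205115 of NCBIM37, plus strand) encodes an inhibitor that binds activated cytokine receptors. It had 186, 300, 284 and 198 CPM in control replicates 1 to 4, 126, 207, 239 and 186 CPM in NA10hd replicates 1 to 4, and 123, 97.6 and 88.6 CPM in NV replicates 1 to 3. Every NV library was below every control and every NA10hd library, while control and NA10hd overlapped. How many of all genes were placed this way, here and for the members below, was not computed. Control HSC averaged 242 ± 58.2 CPM (SD, n = 4), and NV HSC 103 ± 17.6 CPM (SD, n = 3). This was a log2 fold change of -1.24 (standard error, SE, of 0.19, 95% interval -1.65 to -0.83, edgeR adjusted p = 0.00299), or 2.36-fold. Leaving out any 1 library kept Cish a DEG in 7 of 7 fits, with log2 fold changes from -1.39 to -1.12. NA10hd HSC had 189 ± 47.7 CPM (SD, n = 4), a log2 fold change from control of -0.35 (SE 0.22, edgeR adjusted p = 0.554). NA10hd against NV HSC gave a log2 fold change of 0.88 (SE 0.23), just outside the threshold at an edgeR adjusted p of 0.0535. It passed without NA10hd replicate 1 (edgeR adjusted p = 0.0146) and with DESeq2 (adjusted p = 0.00518), and with other libraries left out the edgeR value ran up to 0.255. Some exons of Cish overlap those of Gm17040 on the other strand. Gm17040 had 156 counts over all libraries, and the counting was not stated to use strand.

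Socs2 (ENSMUSG00000020027, chromosome 10, 94847996 to 94879814, minus strand), known as the inhibitor of growth hormone signalling, was the member with the lowest adjusted p in NV HSC. It had 87.4, 101, 132 and 103 CPM in control, 162, 126, 171 and 95.2 CPM in NA10hd and 33.3, 32.7 and 47.3 CPM in NV libraries. The NV libraries stayed below all others by a wide gap, and NA10hd overlapped control. Control HSC averaged 106 ± 18.8 CPM (SD, n = 4), where NV HSC had 37.8 ± 8.30 CPM (SD, n = 3). The log2 fold change was -1.5 (SE 0.19, 95% interval -1.91 to -1.08, edgeR adjusted p = 0.00134), or 2.82-fold lower. With 1 library left out it ranged from -1.69 to -1.37 and was a DEG in 7 of 7 fits. NA10hd HSC had 138 ± 34.8 CPM (SD, n = 4), with a log2 fold change from control of 0.39 (SE 0.21, 95% interval -0.05 to 0.84, edgeR adjusted p = 0.485). Against NV, NA10hd HSC had 3.66-fold more Socs2 (log2 fold change 1.87, SE 0.26, edgeR adjusted p = 0.00256), and this too was a DEG in 7 of 7 fits with 1 library left out.

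Pim1 (ENSMUSG00000024014, chromosome 17, 29627757 to 29632390, plus strand) had the largest changes among the members and also the widest errors among the 3 DEGs. Its CPM were 11.1, 9.28, 21.4 and 7.13 in control, 34.2, 9.79, 12.8 and 45.4 in NA10hd and 3.58, 5.08 and 2.51 in NV libraries, from counts of 26 to 320. All NV libraries were below all others, and the NA10hd libraries split into a pair near the control level and a pair above it. NV HSC had 3.72 ± 1.29 CPM (SD, n = 3) and control HSC 12.2 ± 6.31 CPM (SD, n = 4), a log2 fold change of -1.71 (SE 0.44, 95% interval -2.68 to -0.75, edgeR adjusted p = 0.0441), or 3.28-fold lower. The call was close to the threshold. With 1 library left out, the log2 fold change stayed between -2.01 and -1.29, but Pim1 remained a DEG in only 1 of 7 fits, the one without control replicate 4 (edgeR adjusted p = 0.0395), with adjusted p up to 0.162 in the others. NA10hd HSC had 25.5 ± 17.1 CPM (SD, n = 4), a log2 fold change of 1.05 from control (SE 0.50, 95% interval -0.03 to 2.13, edgeR adjusted p = 0.434). NA10hd exceeded NV HSC 6.73-fold (log2 fold change 2.75, SE 0.60, edgeR adjusted p = 0.0254). That call was lost without NV replicate 1, 2 or 3, with adjusted p up to 0.145 from edgeR, while the log2 fold change ranged from 2.33 to 3.04.

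Socs1 and Socs3, the inhibitors that act on the Jak kinases themselves, did not pass in any comparison. Socs1 (chromosome 16) was low throughout, at 5.18, 2.56, 6.14 and 2.96 CPM in control, 9.59, 4.46, 3.02 and 7.52 CPM in NA10hd and 4.78, 1.96 and 0.387 CPM in NV libraries. The last value rests on 4 counts. Its log2 fold change was -0.82 in NV (SE 0.71, 95% interval -2.37 to 0.73) and 0.54 in NA10hd (SE 0.60, 95% interval -0.75 to 1.83), so a fall as large as that of Socs2 in NV HSC lies within the first interval. Socs3 (chromosome 11) had 19.5, 43.6, 44.1 and 23.9 CPM in control, 61.5, 24.4, 15.7 and 43.2 CPM in NA10hd and 27.1, 21.7 and 16.7 CPM in NV libraries, and all 3 groups overlapped. Its log2 fold change was -0.60 in NV (SE 0.31, edgeR adjusted p = 0.315). In NA10hd it was 0.13 (SE 0.40, edgeR adjusted p = 0.924), and it turned to -0.25 without NA10hd replicate 1. Between NA10hd and NV HSC, Socs1 stood at 1.35 (SE 0.87) and Socs3 at 0.71 (SE 0.43), higher in NA10hd without passing. NA10hd replicates 1 and 4 held the highest levels of Socs1, Socs3 and Pim1 within their group, and these 2 libraries differed in their Xist and Y-linked counts. They also had the fewest genes detected of the 11 libraries, 14430 and 13859 where the others had 15361 to 15900, and the lowest TMM scaling factors, 0.925 and 0.924 where the others had 0.992 to 1.04. The part of this in the higher Pim1 of NA10hd against NV HSC was not tested.

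The kinase and the 2 factors upstream showed no DEG. Jak2 (chromosome 19) had 76.0, 103, 89.8 and 100.2 CPM in control, 86.4, 100.4, 68.3 and 64.4 CPM in NA10hd and 94.2, 99.1 and 115 CPM in NV libraries. Its log2 fold change was 0.15 in NV (SE 0.14, 95% interval -0.17 to 0.46) and -0.20 in NA10hd (SE 0.19, 95% interval -0.62 to 0.21). Stat5b (chromosome 11) had 97.0, 115, 84.5 and 106 CPM in control, 108, 112, 157 and 114 CPM in NA10hd and 97.7, 111 and 116 CPM in NV libraries. The NV interval of Stat5b ran from -0.21 to 0.40 around a log2 fold change of 0.10, which leaves out changes of the size of those of Cish and Socs2, and in NA10hd it was 0.29 (SE 0.18, 95% interval -0.10 to 0.68). Stat5a (chromosome 11) had 89.5, 70.0, 73.2 and 85.0 CPM in control, 92.2, 35.7, 85.7 and 66.6 CPM in NA10hd and 70.0, 109 and 76.2 CPM in NV libraries. NA10hd replicate 2 was the lowest of all and NV replicate 2 the highest. The log2 fold change of Stat5a was 0.10 in NV (SE 0.18, 95% interval -0.28 to 0.48) and -0.18 in NA10hd (SE 0.26), and both turned sign when that library was left out, to -0.13 and 0.04. NA10hd against NV HSC gave -0.37 for Jak2 (SE 0.21), -0.29 for Stat5a (SE 0.30) and 0.18 for Stat5b (SE 0.19), none of them a DEG. Stat5a and Stat5b lie side by side and are near-identical copies, and Stat5a overlaps exons of Stat3 on the other strand, which had 25849 counts over all libraries. How reads were divided among them is not given in the sources used here, so their levels are uncertain.

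**Figure D2:**
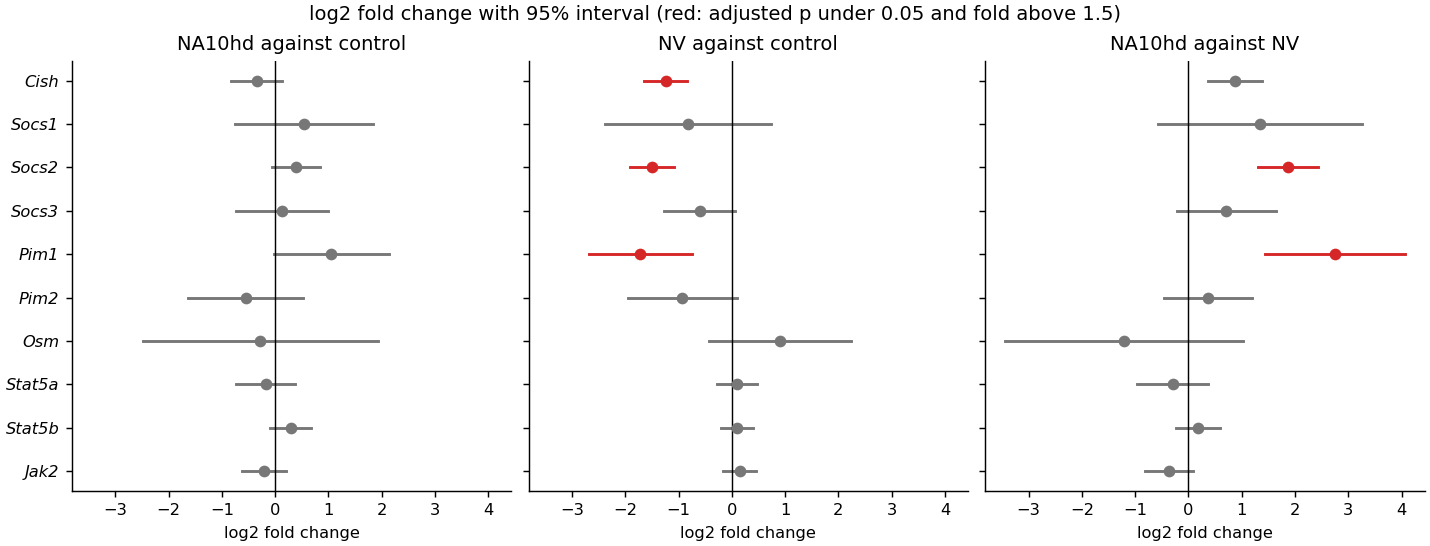
The log2 fold change of each member with its 95% interval is plotted for NA10hd against control, NV against control and NA10hd against NV HSC, with DEGs in red. The NV intervals of Cish, Socs2 and Pim1 lie below 0, those of Jak2, Stat5a and Stat5b are narrow and include 0, and that of Osm is the widest in the NA10hd comparison, from -2.49 to 1.93.

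Pim2, the second of the kinases, and Osm differed widely among the control libraries. Pim2 (ENSMUSG00000031155, chromosome X, 7455388 to 7460558, plus strand) had 40.4, 159, 134 and 29.5 CPM in control replicates 1 to 4, 106, 53.3, 63.2 and 25.4 CPM in NA10hd and 40.0, 53.1 and 50.9 CPM in NV libraries. Control replicates 2 and 3, which held both Xist and Y-linked counts, had the highest levels of all 11 libraries. Osm (ENSMUSG00000058755, chromosome 11, 4136423 to 4141029, plus strand) had 1.43, 5.30, 4.46 and 0.673 CPM in control and 6.05, 5.96 and 5.02 CPM in NV libraries. In NA10hd it had 5.16, 2.07 and 2.59 CPM in replicates 1 to 3 and a count of 0 in replicate 4. With 3 counts as the limit, that count allows up to 0.393 CPM of the library's raw total. The TMM factor of this library was 0.924, so the limit is somewhat higher on the scale of the other values. The same control pair was thus the higher one for both genes. Mean levels in control replicates 2 and 3 were 4.19 times those in replicates 1 and 4 for Pim2 and 4.65 times for Osm, and 2.02 times for Socs3. They were 1.68 times for Pim1, 1.52 times for Cish, 1.22 times for Socs2 and 0.820 times for Stat5a. The pairs did not overlap for 5 of the 10 members, Cish, Socs3, Pim2, Osm and Stat5a, where 42.3% of all genes did not. Of 13462 genes, 7.12% differed over 2-fold between these pairs, and the difference of Pim2 was larger in size than that of 99.3% of them. Replicates 1 and 4 were also the control libraries with the lowest totals. Sex content, depth and any other property of the pairs cannot be told apart.

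With all 4 controls, Pim2 in NV HSC stood at a log2 fold change of -0.93 (SE 0.47, 95% interval -1.95 to 0.09, edgeR adjusted p = 0.307). The NV libraries were next compared with only control replicates 2 and 3, which also held both Xist and Y-linked counts, though not in equal amounts. Here Pim2 was a DEG at -1.61 (SE 0.18, edgeR adjusted p = 0.00597). Against the other 2 controls it was 0.45 (SE 0.22, edgeR adjusted p = 0.274), the opposite direction. Osm moved with the choice of controls too, with a log2 fold change in NV HSC of 0.90 with all controls (SE 0.61), 0.21 with replicates 2 and 3 and 2.44 with replicates 1 and 4 (edgeR adjusted p = 0.0525). Cish and Socs2 kept both direction and call. Cish was at -1.51 (edgeR adjusted p = 0.00413) with the first pair and -0.91 (edgeR adjusted p = 0.00737) with the second. Socs2 was at -1.63 and -1.35 (edgeR adjusted p = 0.00957 and 0.00421). Pim1 kept its direction, at -2.04 and -1.28, and lost its call with either pair (edgeR adjusted p = 0.0722 and 0.157). Socs3 was at -1.01 (edgeR adjusted p = 0.0826) with the first pair and -0.00 with the second. In the fit with replicates 2 and 3, 2.18% of 13792 genes were DEGs, and in that with replicates 1 and 4, 5.58% of 13585.

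**Figure D3:**
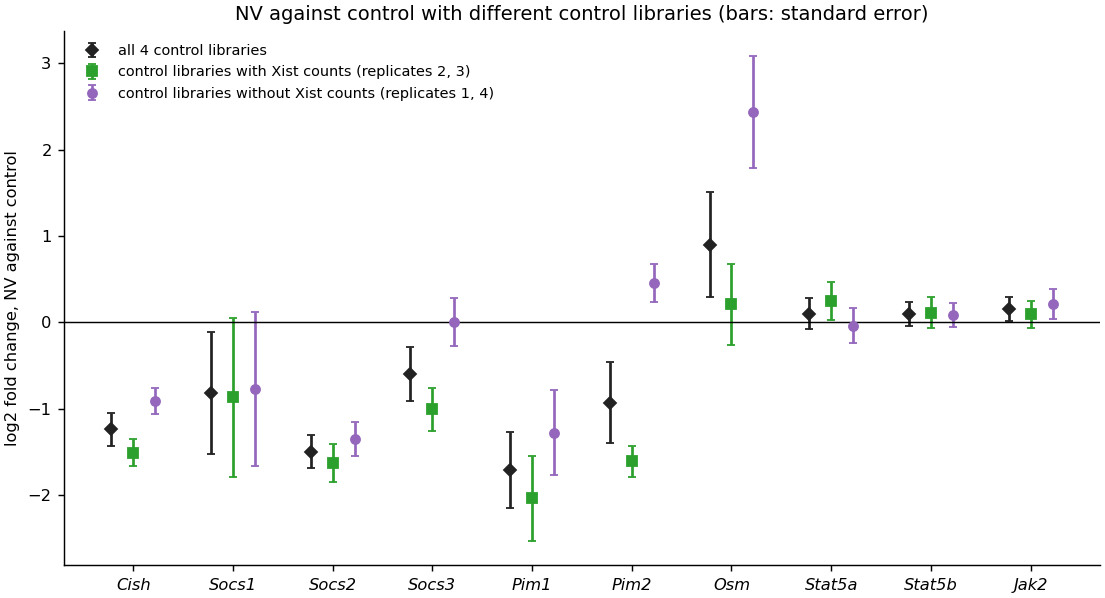
The log2 fold change of each member in NV against control HSC is plotted with its SE for all 4 control libraries, for the 2 that held both Xist and Y-linked counts as the NV libraries did, and for the other 2. Cish, Socs2 and Pim1 are below 0 with each choice, while Pim2 lies at -1.61 with one pair and at 0.45 with the other.

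The same was done for NA10hd HSC. NA10hd replicates 1 to 3 compared with control replicates 1 and 4, all with Y-linked counts and no Xist, gave 0 member DEGs, as did all NA10hd libraries against control replicates 2 and 3. Both fits called 0 of all tested genes as well (13454 and 13942), so these counts do not tell the members from other genes. Pim2 stood at 1.08 with the first choice (SE 0.34, edgeR adjusted p = 0.989), at -1.24 with the second and at -0.55 with all libraries. Socs2 was at 0.68 and 0.25 and Pim1 at 1.05 and 0.72, so both stayed above 0 without passing. Osm was at 1.63 and -0.99, and at -0.28 with all libraries (SE 1.03). Between NA10hd and NV HSC, Pim2 differed by 0.36 (SE 0.38) and Osm by -1.21 (SE 1.02) without passing. For that comparison no such fit could be had, since no NA10hd library held both Xist and Y-linked counts as all NV libraries did, and there this content and the genotype cannot be told apart.

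Levels were compared between members per kilobase of annotated exon. The length used was 6419 bases for Cish and 9532 for Socs2, beside 5030 for Jak2 and 5539 for Stat5b. The Cish exons thus fill most of the gene, which runs from 107198357 to 107205115. Which transcripts were present was not determined. A length above theirs would understate a gene's level, so the order between genes holds only for these lengths. In control HSC the order was Cish, at 37.7 ± 9.07 CPM per kilobase (SD, n = 4), then Pim2, Jak2, Stat5b, Socs3, Stat5a, Socs2, Pim1, Socs1 and Osm, the last at 1.31 ± 0.995 CPM per kilobase. Neighbours in this order were further apart than the larger SD between Stat5b and Socs3, between Socs2 and Pim1 and between Socs1 and Osm, and the other neighbours did not differ beyond their spread. In NV HSC, Cish was the fourth, at 16.0 ± 2.74 CPM per kilobase (SD, n = 3), after Jak2 at 20.4, Stat5b at 19.5 and Pim2 at 17.2. With these lengths Cish was within the spread of Pim2, the gene just above it, and further than the larger SD below Jak2 and Stat5b. Other lengths were not tried, so its place below Jak2 and Stat5b may come from the length used. Pim1 was the lowest in NV HSC, at 1.89 ± 0.653 CPM per kilobase (SD, n = 3), within the spread of Socs1 just above it, at 1.95 ± 1.82. In NA10hd HSC, Cish had 29.5 ± 7.43 CPM per kilobase (SD, n = 4), followed by Pim2 at 22.2 ± 12 and Stat5b at 22.2 ± 4.10, and these 3 neighbours did not differ beyond their spread.

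The other genes of the pathway were taken from 5 lists of 68 genes in all, of which 9, among them the ligand genes Epo, Csf2, Il3 and Il5, had 0 counts in every library. A gene with 0 of 112761488 counts can have had up to 0.0266 CPM of this raw total, without TMM scaling. Here 3 counts are the limit and only counting error is covered. Of 7 other Jak kinases and Stat factors, all were tested and 0 were DEGs in NV HSC by edgeR, although 2 had an unadjusted p under 0.05, as 19.5% of all tested genes did, with a median log2 fold change of 0.02. DESeq2 and limma-voom called 0 of them too. Of 15 negative regulators other than the members, which include Socs4 to Socs7, Sh2b3 and several phosphatases, 0 of 15 tested were DEGs in NV HSC, although 3 were under 0.05 before adjustment, a share near that of all genes. DESeq2 and limma-voom also called 0 of these. The list's median log2 fold change was 0.08.

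Of 17 receptor genes, 12 were tested and 3 were DEGs in NV HSC, where 4.76% of all tested genes were. Before adjustment, 5 of the 12 had p under 0.05 in edgeR's test, beside 19.5% of all tested genes. Epor, the erythropoietin receptor, rose from 16.6 ± 4.03 CPM (SD, n = 4) to 43.0 ± 13.6 CPM (SD, n = 3), a log2 fold change of 1.37 (edgeR adjusted p = 0.0105). Ghr, the growth hormone receptor, fell from 26.7 ± 1.22 to 10.8 ± 5.98 CPM (SD), with a log2 fold change of -1.32 (edgeR adjusted p = 0.0383). Il6st, the shared subunit through which Osm signals, fell from 42.2 ± 8.70 to 20.3 ± 5.62 CPM (SD), with a log2 fold change of -1.07 (edgeR adjusted p = 0.0249). Ghr lost its call in 6 of 7 fits with 1 library left out and Il6st in 4 of 7, and Epor lost it without NV replicate 2. Of 13 cytokine genes only 3 could be tested, and none was a DEG.

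Of 16 other known Stat5 targets, 14 were tested and 1 was a DEG in NV HSC, beside 4.76% of all tested genes. The list's median log2 fold change was -0.09. Before adjustment, 5 of the 14 had p under 0.05 in edgeR's test, beside 19.5% of all tested genes. The DEG was Igf1, which encodes a growth factor. Igf1 had 47.5, 14.8, 25.3 and 41.4 CPM in control, 107, 87.9, 117 and 45.6 CPM in NA10hd and 0.159, 1.83 and 2.03 CPM in NV libraries, the last group from 2, 27 and 21 counts. The NV libraries were far below the rest, at a log2 fold change of -4.59 from control (SE 0.62, edgeR adjusted p = 0.00169). Igf1 was a DEG in 7 of 7 fits with 1 library left out. No other target on the list was a DEG. In NV HSC, Myc, Pim3, Ccnd2 and Bcl2l1 stood at log2 fold changes of 0.38, -0.37, -0.30 and -0.17, and none passed. Mcl1, a survival gene, was at -0.62 (edgeR adjusted p = 0.0608). Bcl2 was at 0.33 (edgeR adjusted p = 0.214) and Id1 at -0.67 (edgeR adjusted p = 0.251).

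**Figure D4:**
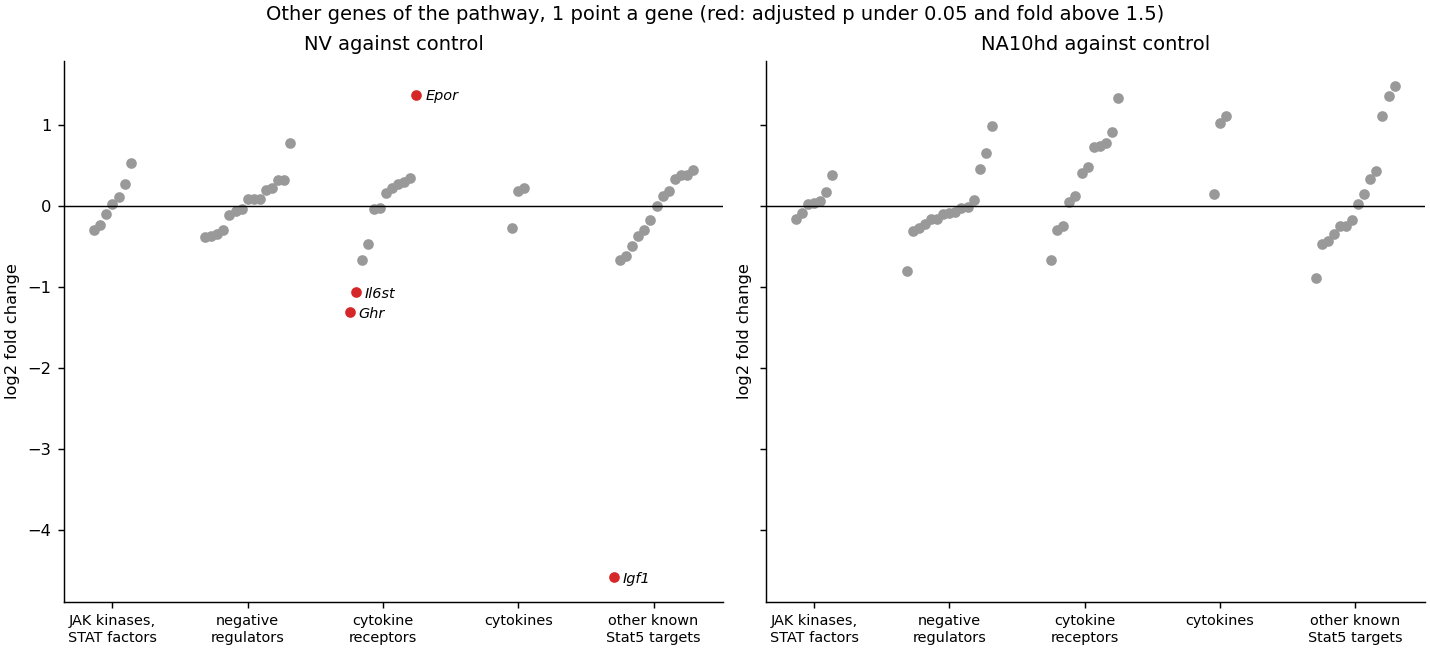
Each point is the log2 fold change of 1 gene of the 5 pathway lists, with a panel for NV and a panel for NA10hd against control HSC and DEGs in red. In NV against control HSC, Epor at 1.37 stands above 0 and Igf1 at -4.59 stands far below, while the negative regulators lie around a median of 0.08 with no DEG.

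In NA10hd HSC, 0 of the tested genes of the 5 lists were DEGs by edgeR, and 5 were called by DESeq2 (Ptpn2, Pias4, Il11ra1, Bcl2 and Igf1). Of all genes, 0.00766% were called by edgeR and 1.26% by DESeq2. Before adjustment, 6 of 12 receptors, 2 of 3 cytokines, 2 of 15 negative regulators, 3 of 14 other targets and 0 of 7 Jak kinases and Stat factors had p under 0.05, beside 11.9% of all tested genes. Among the 12 tested receptors, 9 were higher and 3 lower, with a median of 0.45 on the log2 scale. Compared directly, NA10hd and NV HSC differed in 5 genes of the lists, where 5.09% of all tested genes were DEGs. Csf2rb, Il6st and Il11ra1, all receptor genes, were higher in NA10hd, at log2 fold changes of 1.56, 1.17 and 0.79 (edgeR adjusted p = 0.0273, 0.0407 and 0.0290). With 1 library left out, Csf2rb lost its call in 4 of 7 fits, Il6st in 5 and Il11ra1 in 3, with edgeR adjusted p up to 0.154, 0.190 and 0.184. Igf1 was higher by 6.06 on the log2 scale (edgeR adjusted p = 0.000476). Bcl2, an inhibitor of apoptosis, was lower in NA10hd, at -1.24 (edgeR adjusted p = 0.00525, and 0.0591 without NV replicate 3). Bcl2 had 44.3 to 57.1 CPM in NA10hd, 97.6 to 137 in NV and 88.4 to 101 in control libraries, so that NA10hd was below both other groups without overlap. The share of all genes so placed was not computed.

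Other marker lists moved with the NV comparison, in which 4.76% of all tested genes were DEGs. Of 10 immediate early genes, which rise within minutes of stimulation or of cell handling, 8 were DEGs, all lower in NV HSC. Their summed level was 6942 to 8633 CPM in control, 4283 to 9399 across NA10hd and 3480 to 4799 across NV libraries. Of 6 megakaryocyte genes, 3 were higher (Pf4, Itga2b and Ppbp) and 1 lower (Vwf), and they summed to 310 to 336 CPM in control, 240 to 407 across NA10hd and 277 to 593 across NV libraries. Of the 7 HSC markers, Procr and Fgd5 were lower and Ly6a higher in NV HSC. Of the erythroid list, Klf1 was higher in NV HSC, and the list summed to 3.99 to 8.05 CPM in control, 2.21 to 3.28 across NA10hd and 10.7 to 24 across NV libraries. The endothelial list summed to 198 to 239 CPM in control, 191 to 306 across NA10hd and 146 to 185 across NV libraries. Of its 4 tested genes, 3 were lower in NV HSC, with Emcn a DEG. Tek went the other way, at a log2 fold change of 0.42 (edgeR adjusted p = 0.126). The stromal list summed to 8.77 to 19.8 CPM in control, 12.9 to 25.8 across NA10hd and 2.90 to 8.66 across NV libraries, with 3 of 3 tested genes below control in NV HSC and none a DEG. Their part in the lower levels of Cish, Socs2 and Pim1 was not tested.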

How the data were processed

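RNA-Seq of 4 control, 4 NA10hd and 3 NV libraries was analysed. The authors amplified the cDNA of sorted HSC, prepared it with Nextera XT for a NextSeq500, and mapped reads by HISAT2 on NCBIM37. They deposited raw, unnormalized featureCounts counts of 37991 genes. Versions, the strand setting and the handling of reads with several matches are not given in the sources used here. Symbols, positions and exon lengths came from the annotation of the same build (786 IDs had no symbol). Amplified reads carry no molecular identifiers, so limits cover counting error only.

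Each comparison was fitted on its own libraries and all genes in edgeR 4.0.16 (R 4.3.3), by the quasi-likelihood test after TMM scaling and the default filter on low counts. DEGs passed a fold of 1.5 at an adjusted p under 0.05. Standard errors came from the log2 fold change and its F statistic. CPM were counts over the total times the TMM factor over all 11 libraries. The alternatives were DESeq2 1.42.0 (the tool of the study's methods), limma-voom (limma 3.58.1), DESeq2's size factors, no filter, a filter of 10 counts, a replicate block, all groups fitted together, glmTreat, no fold threshold, each library left out, and libraries alike in the presence of Xist and of Y-linked counts. The fit on the other control libraries was chosen after seeing the data. All 10 members, the pathway genes that were DEGs in any comparison and the 5 genes nearest in profile to Cish and to Socs2 were named by rule. Myc, Pim3, Ccnd2, Bcl2l1, Mcl1, Id1, the additional DESeq2 calls and the markers were named after their values were seen. Some genes of the lists are not reported here. The members and lists were chosen with earlier results of these data known.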

Additional observations from a re-analysis of the deposited data

Results flagged for a closer look

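Among the 20 combinations of a member and a group of 4 libraries, 1 library stood apart from the rest of its group. Stat5b in NA10hd replicate 3 had 157 CPM, where the other NA10hd libraries had 108 to 114 CPM, so that its gap to the nearest was 0.879 of the group's range, above Dixon's 95% critical value. Chance flags about 1 in 20 such groups. Without it, the log2 fold change of Stat5b in NA10hd against control HSC was 0.14 (adjusted p = 0.763 from edgeR), beside 0.29 with all libraries, and it was a DEG in neither fit.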

How the results depend on the processing

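Cish and Socs2 in NV HSC and Socs2 between NA10hd and NV HSC kept their direction and call under every alternative run. Pim1 in NV HSC kept its direction in all fits but was not a DEG with limma-voom (adjusted p = 0.0646), all groups in one fit (0.195), the replicate block (0.0912), glmTreat (0.210), either pair of controls or 6 of the 7 fits with 1 library left out. Pim1 between NA10hd and NV HSC was not a DEG with limma-voom (adjusted p = 0.0962) or glmTreat (0.0651). Cish between NA10hd and NV HSC passed with DESeq2 (adjusted p = 0.00518), limma-voom (0.0371), DESeq2's size factors (0.0479), no filter (0.0395), the filter of 10 counts (0.0315) and all groups in one fit (0.0274). Of the members between NA10hd and NV HSC, 2 were called, but 3 (with Cish) by DESeq2, DESeq2's size factors, no filter, the filter of 10 counts and all groups in one fit, 2 (Cish and Socs2) by limma-voom, 1 with glmTreat and 1 to 3 with 1 library left out (1 without NV replicate 1, 2 or 3). The share of all genes called was 5.09%, and 7.92% with DESeq2, 5.03% with DESeq2's size factors, 3.94% with no filter, 7.31% with the filter of 10 counts, 8.22% with all groups in one fit, 1.37% with glmTreat and 1.04% to 1.65% without an NV library.

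Of the pathway genes, 0 were called in NA10hd, but 5 with DESeq2 and 1 (Bcl2) with all groups in one fit, where 0.00766%, 1.26% and 0.278% of all genes were. In NV HSC 4 were called, but 2 with all groups in one fit, 1 with glmTreat and 1 to 3 with 1 library left out (2 without control replicate 3, 1 without NV replicate 2), where the share of all genes fell from 4.76% to 1.11%, 0.988%, 4.49% and 1.93%. Between NA10hd and NV HSC 5 were called, but 8 with DESeq2, 1 with glmTreat and 1 to 6 with 1 library left out (2 without NV replicate 1 or 2, 1 without NV replicate 3). DESeq2 called 240 of all genes in NA10hd where edgeR called 1, 1015 in NV where edgeR called 641 and 1495 between them where edgeR called 685. The cause was not tested.

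Values that changed sign belonged to members that were not DEGs. In NA10hd, Socs3 (0.13) was -0.18 with limma-voom, -0.25 to 0.38 with 1 library left out (-0.05 without control replicate 1) and -0.29 with control replicates 2 and 3. Osm (-0.28) was -0.91 to 0.15 with 1 library left out (0.12 without NA10hd replicate 4) and 1.63 with control replicates 1 and 4 and NA10hd replicates 1 to 3, and Pim2 (-0.55) was 1.08 there. Stat5a was -0.33 to 0.04 with 1 library left out in NA10hd and -0.13 to 0.22 in NV, where it was -0.04 with control replicates 1 and 4. With those controls Pim2 in NV was 0.45. Pim2 between NA10hd and NV HSC (0.36) was -0.01 to 0.62 with 1 library left out.

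Same-numbered libraries did not deviate together (correlation of deviations from the group means, -0.0875 to 0.0264). Libraries with different numbers were not compared in this way, so the check cannot tell whether the numbers pair them. With the replicate number as a block, 0 members were DEGs in NA10hd, 2 in NV (Cish and Socs2) and 2 between NA10hd and NV HSC, and 0, 3 and 2 pathway genes were, where 0%, 3.21% and 4.32% of all genes were called. Counts were lowest for Socs1 and Osm, at 4 to 78 and 0 to 88 per library.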

Other observations

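The genes whose profile was most like that of Cish were Laptm4b, Pcp4l1, Hebp1, Trim47 and Angel1. Likeness was the root mean square difference of mean-centred log2 CPM (prior count 2) over the 11 libraries, compared among 12283 genes. It was 0.273 for Laptm4b, which had 71.5 CPM in control, 74.7 in NA10hd and 43.3 in NV HSC on average, and 0.319 to 0.322 for the other 4. For Socs2 the nearest were Ifitm1, Snn, Fam169a, Gimap5 and Vdr, the vitamin D receptor. Ifitm1, an interferon-inducible membrane protein, was the closest at 0.258, with mean levels of 1459 CPM in control, 1673 in NA10hd and 415 in NV HSC. The other 4 were at 0.282 to 0.333. All 5 had their lowest mean in NV and their highest in NA10hd HSC, as Socs2 had, which follows from choosing them by likeness to it.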
